A study of Mus musculus with 20 samples.

Results

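The nuclear genes for the mitochondrial oxidative phosphorylation machinery were followed across the first days of mouse development. A gene was a member when its symbol began with Nduf followed by a, b, c, s or v, with Uqcr, with Cox4 to Cox8 or with Atp5, or was Sdha, Sdhb, Sdhc or Sdhd. This gave 92 of the 24411 gene symbols in the tables: 37 of complex I, 7 complex I assembly factors (Ndufaf), 4 of complex II, 8 of complex III, 19 of complex IV (Ndufa4 among them) and 17 of complex V. Apart from Ndufa4, the complexes follow the symbols. Atp5s and Atp5sl, named Dmac2l and Dmac2 in RefSeq, thus count with complex V, and Ndufa4l2 with complex I. Smart-seq2 libraries, primed on the poly(A) tail with oligo-dT, were made from untreated batches of 10 to 15 eggs or embryos. The B6CASTF1 hybrids gave 3 samples of G1 zygotes, 3 of G2 zygotes and 2 of 2-cell embryos in G2; the sources used here do not name the direction of the cross. The inbred strain C57BL/6J was sampled as MII eggs, G1 zygotes, G2 zygotes and 2-cell embryos in G2, with 3 samples each. All eggs had been matured in culture for 12 hours after release from dbcAMP, were fertilized in vitro and grew under 5% oxygen, so each stage carries that culture history. The sources used here do not give the age of the donor females.

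Oxidative phosphorylation passes electrons from NADH (complex I) and succinate (complex II) through complex III to oxygen at complex IV, and complex V uses the proton gradient so made to synthesize ATP. Complexes I, III, IV and V are built from subunits of both the nuclear and the mitochondrial genome, and complex II from nuclear genes alone. Eggs and cleavage embryos inherit their mitochondria from the oocyte and are known to rely on pyruvate oxidation, while the RNA stored in the egg is degraded and the embryo's own genome is switched on, which in the mouse takes place in the zygote and the 2-cell embryo.

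The values are the authors' own comparisons of consecutive stages and hold no value per sample. Fold changes are log2 values of the later over the earlier stage, each with its standard error (SE), and a gene rose or fell when the authors' adjusted p (DESeq2) was under 0.05. Nothing in the labels tells whether the samples of a group are separate litters or collections, so a p-value covers only the spread between these samples, which may be technical. Levels are approximate mean normalized counts per stage worked out from the deposited mean and fold changes, and no fold is given where a stage's level is under 3. Counts were scaled by size factors and come from poly(A)-primed libraries. A rise or fall is therefore relative to the other captured RNA, and amounts per embryo and poly(A) tail lengths were not measured here. Each sample pools whole embryos, so fewer embryos holding an RNA and less of it per embryo cannot be told apart. All 10 oocyte markers had a level above 3 at every stage, with Dppa3 or H1foo the highest. The 10 cumulus and granulosa markers summed to 302.0 to 1609 across the stages of C57BL/6J and to 1430 to 2550 in B6CASTF1, with 3 to 8 of the 10 under 3. Most of that sum was Cyp19a1 before the 2-cell stage, and the part of such cells in the values was not tested.

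Most of the tested members rose at the 2-cell stage in both strains. In 2-cell embryos against G2 zygotes of B6CASTF1, 57 of 90 tested members rose and 14 fell (63.3% and 15.6%), where 33.1% of all tested genes rose and 26.8% fell. In the same comparison of C57BL/6J, 49 of 89 rose and 12 fell (55.1% and 13.5%), against 25.0% and 25.3% of all tested genes. Of tested genes with mean counts of 100 or more, 3973 of 9480 rose and 3520 fell in B6CASTF1. In C57BL/6J 2531 of 8300 such genes rose and 2116 fell. From the authors' deposited tables, the members' median change was 1.63 in B6CASTF1 and 1.58 in C57BL/6J on the log2 scale, while the medians of all genes with mean counts of 100 or more were 0.21 and 0.23.

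The earlier steps moved fewer members. In C57BL/6J, comparing G1 zygotes with MII eggs, 10 of 89 members rose and 8 fell (11.2% and 8.99%), where 1.62% and 1.12% of all tested genes did. Of tested genes with mean counts of 100 or more, 194 of 8300 rose there and 123 fell. The median SE of this comparison was 0.46 for the tested members and 1.26 for all tested genes. A smaller SE lets a smaller change pass, and its part in the shares of called members was not tested. In G2 against G1 zygotes of C57BL/6J, 18 of 89 rose (20.2%) and 0 fell in the authors' DESeq2 test. Of all tested genes 5.01% rose and 2.87% fell in that test. At an unadjusted p under 0.05, 35 members were higher and 3 lower, and the share of all genes at that limit was not worked out. In G2 against G1 zygotes of B6CASTF1, 16 of 89 rose and 4 fell (18.0% and 4.49%), where 9.63% of all tested genes rose and 9.63% fell. Those that fell were Atp5b, Sdha, Uqcr11 and Uqcrc2. At the 2-cell step of B6CASTF1 Atp5b and Uqcr11 then rose, and Sdha and Uqcrc2 fell again. In these 3 comparisons the authors' deposited tables give the members median changes of -0.09, 0.70 and 0.12. Consecutive comparisons share the samples of the stage between them, so their values are given side by side only.

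**Figure D1:**
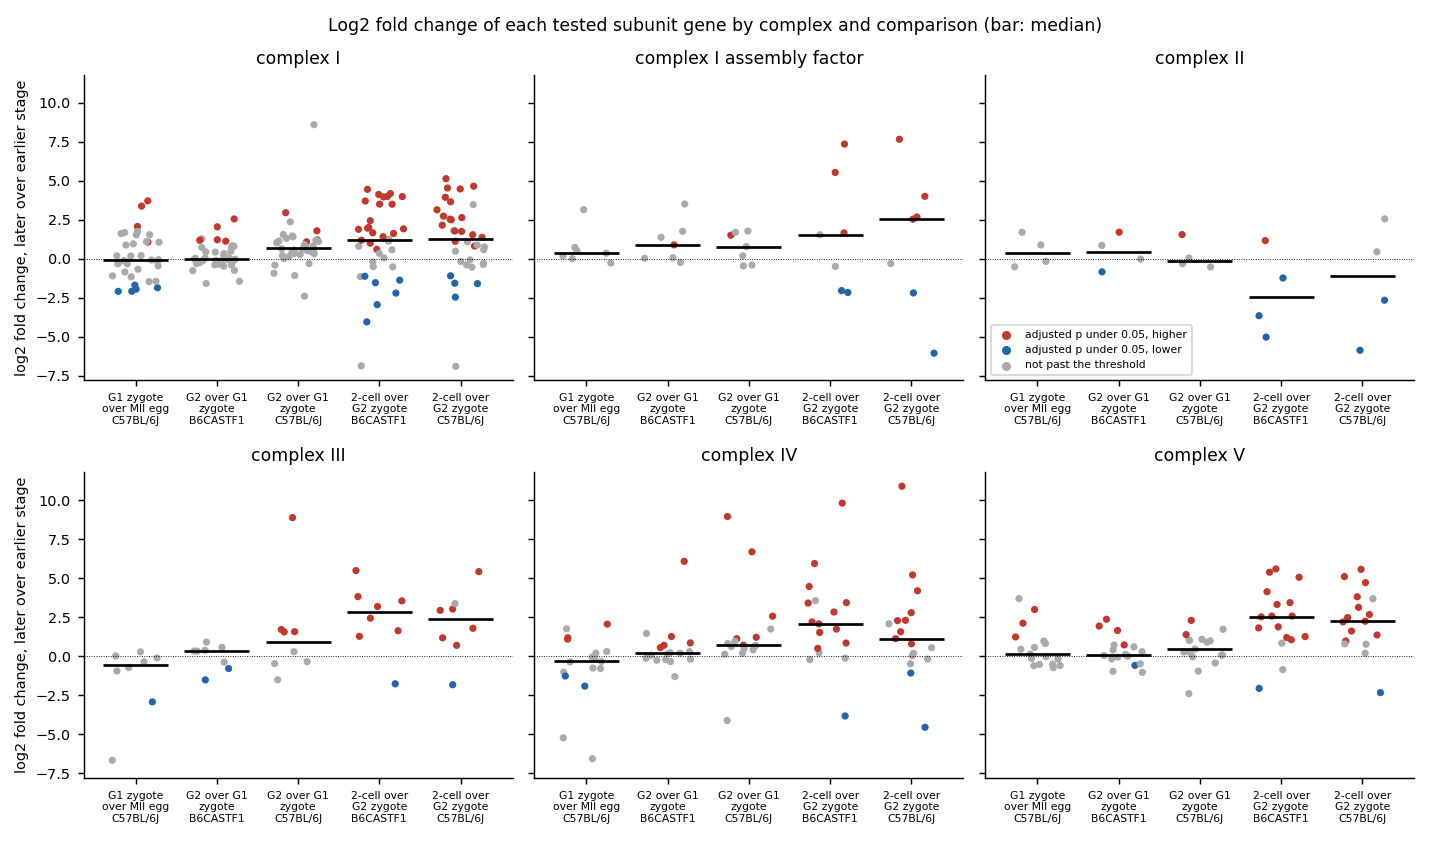
Log2 fold change (later over earlier stage) of every tested member, by complex and comparison, with B6CASTF1 left of C57BL/6J where both were compared. Red and blue points passed an adjusted p of 0.05, grey points did not, black bars are medians, and members with a stage level under 3 are drawn too; in the 2-cell comparisons the medians of complexes III and V lie above 2 and that of complex II below 0.

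Not every member could be tested. Cox8b was listed at 0 in both strains. Cox7b2 was removed by the authors' filter on low means in all 5 tables, Ndufa4l2 in 1 of them, and Ndufa10 has fold changes but no p in C57BL/6J. Of the 92 members, 80 changed in at least 1 comparison and 12 in none. Cox4i1, the ubiquitous form of complex IV subunit 4, was the only member that rose in all 5 comparisons. There were 14 members that rose in 1 comparison and fell in another. Calls on a stage level under 3 are included. The matching counts over all genes were not worked out, so these counts have no background beside them.

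Complex I takes electrons from NADH. In 2-cell embryos against G2 zygotes, 20 of its 37 tested members rose and 6 fell in B6CASTF1, and 18 of 36 rose and 4 fell in C57BL/6J. Of these, 16 rose in both strains, and Ndufa6, Ndufab1 and Ndufs4 fell in both strains. Ndufa8, Ndufa10 and Ndufb5 were the other falls in B6CASTF1. Ndufa5, which had risen in G2 against G1 zygotes of C57BL/6J, was the other fall in that strain.

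The core subunits hold the flavin and iron-sulfur clusters of the electron path. Ndufs8, an iron-sulfur subunit, had a level of 3762 in 2-cell embryos, against 217.8 in G2 zygotes of B6CASTF1. That is a change of 4.11 (SE 0.38) in the authors' deposited table, with an adjusted p of 9.2e-26. In C57BL/6J its level across MII eggs, G1 zygotes, G2 zygotes and 2-cell embryos was 9.3, 95.6, 168.0 and 3708. It rose in G1 zygotes against MII eggs by 3.36 (SE 0.77) and again in 2-cell embryos against G2 zygotes by 4.46 (SE 0.71) in the authors' deposited tables. Ndufv2, another iron-sulfur subunit, rose at the 2-cell step in both strains, to 1153 against 507.8 in B6CASTF1 and to 2128 against 369.2 in C57BL/6J. Ndufs1 and Ndufv1 rose in B6CASTF1, by 1.61 (SE 0.44) and 3.69 (SE 0.76), and did not pass in C57BL/6J, where the authors' deposited table has 3.46 (SE 2.18) and -0.29 (SE 2.35). Ndufs3 passed in neither strain. Ndufs7 rose by 3.13 (SE 0.48) in C57BL/6J, while the authors' deposited table gives 0.80 (SE 0.63, adjusted p = 0.27) in B6CASTF1.

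Among the accessory subunits, Ndufa9, which sits where the 2 arms of the enzyme meet, had a level of 3979 in 2-cell embryos, against 256.8 in G2 zygotes of B6CASTF1. The authors' deposited tables have 3.95 (SE 0.24) there and 3.93 (SE 0.39) in C57BL/6J. Ndufa11 had the highest rise of complex I in B6CASTF1, at 4.44 (SE 0.44), and Ndufc1 in C57BL/6J, at 5.12 (SE 0.54), in the authors' deposited tables. Ndufab1, the mitochondrial acyl carrier protein, which also serves fatty acid and lipoic acid synthesis, had levels of 13532, 10703, 13322.5 and 2401 across MII eggs, G1 zygotes, G2 zygotes and 2-cell embryos of C57BL/6J. In B6CASTF1 its levels were 5040 in G1 zygotes, 4216 in G2 zygotes and 910.4 in 2-cell embryos. The authors' deposited tables give Ndufab1 -2.21 (SE 0.23) in B6CASTF1 and -2.47 (SE 0.30) in C57BL/6J at the 2-cell step. Ndufs4, an accessory subunit whose loss in mice is used as a model of Leigh syndrome, fell as well, with -1.38 (SE 0.29) in B6CASTF1 and -1.58 (SE 0.30) in C57BL/6J in the authors' deposited tables. Ndufa10 had the largest called fall of the complex in B6CASTF1, with a level of 312.5 in 2-cell embryos against 5208 in G2 zygotes. The authors' deposited table gives it -4.06 (SE 0.19), and in C57BL/6J the level was 61.7 in 2-cell embryos against 1571 in G2 zygotes, with no p.

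At fertilization complex I members moved apart. With G1 zygotes set against MII eggs, Ndufb7, Ndufs8, Ndufa9 and Ndufa8 rose and Ndufa1, Ndufa3, Ndufa11, Ndufa12 and Ndufb9 fell. Ndufb7 had a level of 268.0 in G1 zygotes, against 20.6 in MII eggs, a rise of 3.70 (SE 0.70) with an adjusted p of 2.4e-05 in the authors' deposited table. Ndufa12 had a level of 107.8 in G1 zygotes, against 462.4 in MII eggs, and the authors' deposited table has -2.10 (SE 0.54) with an adjusted p of 0.0066. Ndufa11, Ndufa12 and Ndufb9 fell here and rose at the 2-cell step in both strains, and so did Ndufa1. Ndufa7 was the complex I member that rose in G2 against G1 zygotes of both strains, by 2.04 (SE 0.45) in B6CASTF1 and 2.94 (SE 0.57) in C57BL/6J in the authors' deposited tables.

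The Ndufaf assembly factors, which build complex I and are not part of it, split in the same way. In 2-cell embryos Ndufaf1, Ndufaf5 and Ndufaf7 rose and Ndufaf3 and Ndufaf4 fell in both strains. Ndufaf5 had a level of 2551 in 2-cell embryos, against 55.4 in G2 zygotes of B6CASTF1, and 1409 against 88.7 in C57BL/6J. Ndufaf4 first rose in G2 against G1 zygotes, by 0.88 (SE 0.17) in B6CASTF1 and 1.5 (SE 0.28) in C57BL/6J, in the authors' deposited tables. Its level in 2-cell embryos was then 1422 against 5903 in G2 zygotes of B6CASTF1, and 3168 against 14560.5 in C57BL/6J. Ndufaf3, which acts with Ndufaf4 in an early assembly step, had a level of 3.2 in 2-cell embryos against 211.7 in G2 zygotes of C57BL/6J, where it fell by 6.06 (SE 1.21) in the authors' deposited table.

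Complex II, succinate dehydrogenase, was the complex with a negative median at the 2-cell step in both strains: -2.45 in B6CASTF1 and -1.12 in C57BL/6J, over 4 genes, in the authors' deposited tables. Sdha, the flavoprotein that oxidizes succinate, had levels of 6596, 3656 and 288.8 in G1 zygotes, G2 zygotes and 2-cell embryos of B6CASTF1. In C57BL/6J its levels were 2197, 1527, 1218 and 20.7 across MII eggs, G1 zygotes, G2 zygotes and 2-cell embryos. The 2-cell step gave -3.66 (SE 0.21) in B6CASTF1 and -5.88 (SE 0.82) in C57BL/6J in the authors' deposited tables. Sdhc, a membrane anchor, fell as well, to 157.8 in 2-cell embryos, against 5174 in G2 zygotes of B6CASTF1, and to 97.1 against 617.6 in C57BL/6J. The authors' deposited tables give Sdhc -5.04 (SE 0.39) and -2.67 (SE 1.06) in these strains. Sdhb, the iron-sulfur subunit, moved the other way: it rose by 1.15 (SE 0.37, adjusted p = 0.0036) in B6CASTF1 and had 2.54 (SE 1.19, adjusted p = 0.063) in C57BL/6J in the authors' deposited tables. Sdhd, the other anchor, rose in G2 against G1 zygotes of both strains, by 1.69 (SE 0.30) in B6CASTF1 and 1.54 (SE 0.41) in C57BL/6J in the authors' deposited tables. At the 2-cell step the authors' deposited tables give Sdhd -1.24 (SE 0.33) in B6CASTF1, a fall, and 0.44 (SE 0.41) in C57BL/6J, where it did not pass.

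The promoters of Sdha and Sdhb are shown because the catalytic pair moved in opposite directions at the 2-cell step of B6CASTF1; in C57BL/6J Sdha fell and Sdhb did not pass. They are RefSeq sequences of GRCm38.p6, 250 bases before to 50 after the annotated start, read 5' to 3' on the gene's strand. Capitals mark GCGCATGC or its reverse complement GCATGCGC (part of the NRF1 site) and CCGGAAG (the core of ETS factors such as GABP). Sdha lies at chr13:74350191-74350490 on the minus strand and holds neither of these exact runs of letters. Sdhb lies at chr4:140961021-140961320 on the plus strand and holds both. Other spellings of the sites were not searched, so a variant site in either window would be missed. The window of Sdhd, which fell at the 2-cell step of B6CASTF1, also holds CCGGAAG, as its reverse complement.
Sdha: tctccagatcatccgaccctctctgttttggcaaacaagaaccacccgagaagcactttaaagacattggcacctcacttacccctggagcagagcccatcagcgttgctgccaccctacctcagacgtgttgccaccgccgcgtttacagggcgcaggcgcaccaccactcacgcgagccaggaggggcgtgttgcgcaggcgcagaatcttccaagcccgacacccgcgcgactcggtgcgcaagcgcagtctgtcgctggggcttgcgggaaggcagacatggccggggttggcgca
Sdhb: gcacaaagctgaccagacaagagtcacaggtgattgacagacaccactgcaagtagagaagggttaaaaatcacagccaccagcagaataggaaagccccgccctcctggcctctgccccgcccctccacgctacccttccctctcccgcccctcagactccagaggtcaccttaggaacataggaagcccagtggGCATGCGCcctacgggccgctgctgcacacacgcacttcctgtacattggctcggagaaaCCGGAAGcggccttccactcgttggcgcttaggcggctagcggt

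Complex III hands electrons from ubiquinol to cytochrome c. In 2-cell embryos 7 of 8 members rose in B6CASTF1 and 6 of 8 in C57BL/6J, and Uqcrc2 fell in both. Uqcrfs1, the Rieske iron-sulfur protein, had a level of 1570 in 2-cell embryos, against 110.1 in G2 zygotes of B6CASTF1, and 821.6 against 19.0 in C57BL/6J. These are changes of 3.83 (SE 0.42) and 5.44 (SE 0.83) in the authors' deposited tables. The core proteins Uqcrc1 and Uqcrc2, which pair in the matrix part of the complex, differed. Uqcrc1 rose by 5.50 (SE 0.88) in B6CASTF1, and in C57BL/6J the authors' deposited table has 3.38 (SE 2.39, adjusted p = 0.23). Uqcrc2 fell, with -1.76 (SE 0.23) in B6CASTF1 and -1.82 (SE 0.45) in C57BL/6J in the authors' deposited tables. Levels of Uqcrc2 were 7255.5, 3802, 2765.5 and 784.5 across the 4 stages of C57BL/6J from MII egg to 2-cell embryo, and 8081, 4709 and 1393 across the 3 of B6CASTF1.

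Uqcr11, a small subunit, fell and then rose. Its level was 824.2 in G1 zygotes, against 6225 in MII eggs, and the authors' deposited table gives -2.92 (SE 0.34, adjusted p = 2.8e-14). In 2-cell embryos its level was 5376, against 655.1 in G2 zygotes of C57BL/6J, a rise of 3.04 (SE 0.35) in the authors' deposited table. Uqcr10, Uqcrb and Uqcrh (the hinge protein that contacts cytochrome c1) rose in G2 against G1 zygotes of C57BL/6J, by 1.58 (SE 0.24), 1.72 (SE 0.52) and 1.57 (SE 0.30) in the authors' deposited table. The fourth complex III call there, Uqcrc1, rests on a level under 3 in G1 zygotes.

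**Figure D2:**
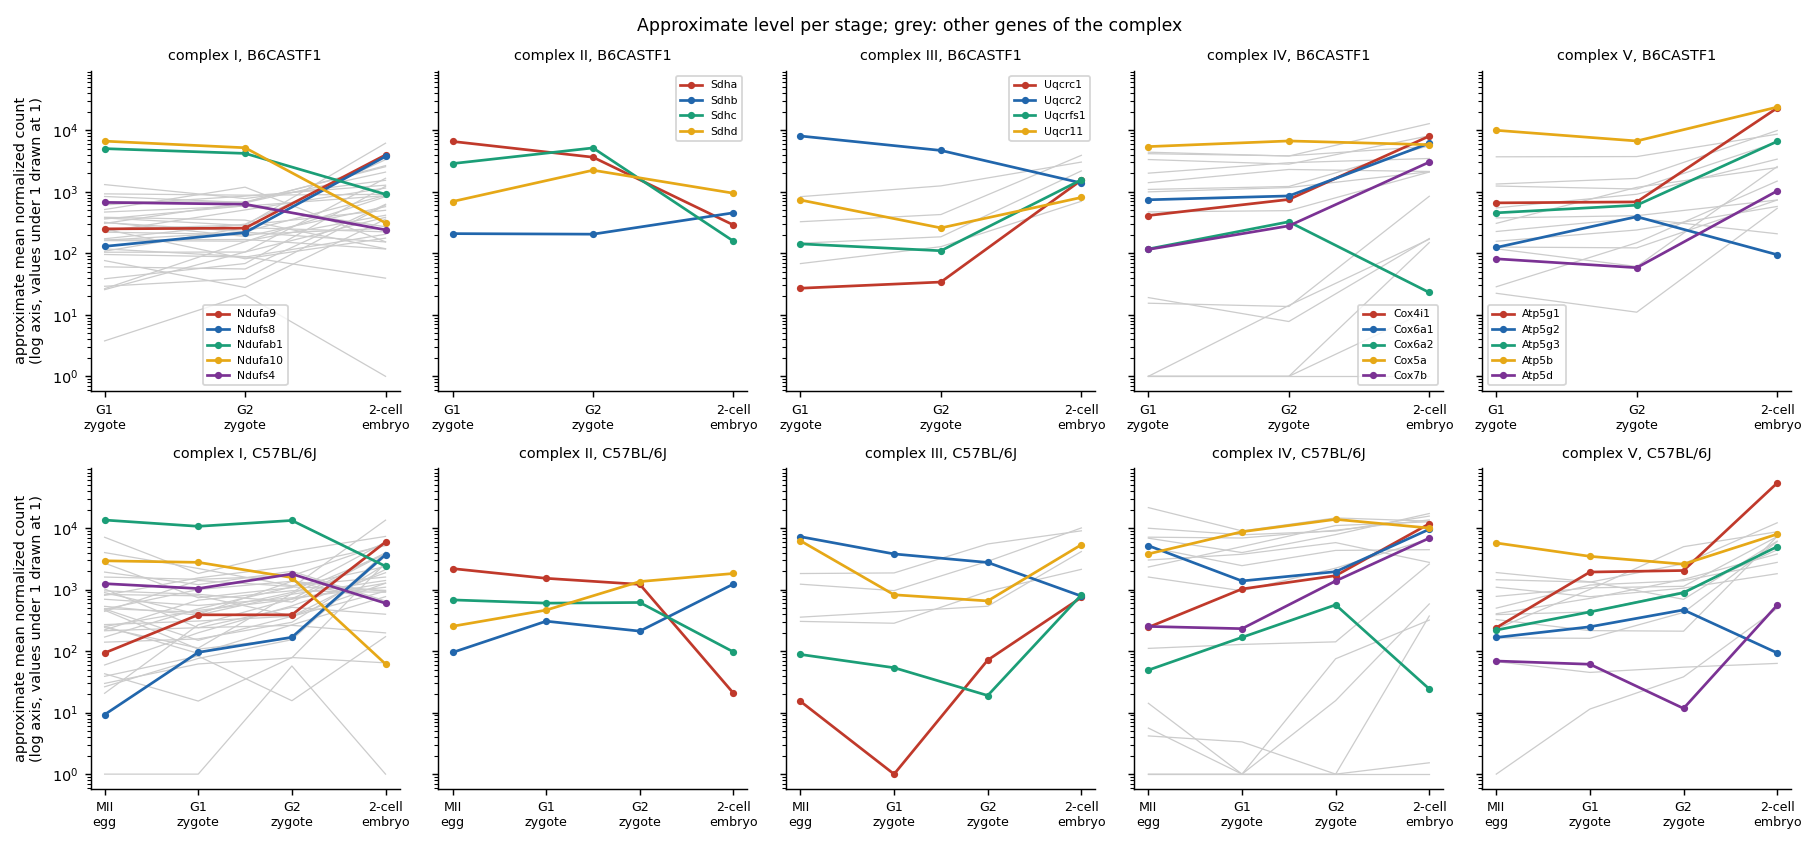
Approximate mean normalized count per stage on a log axis, B6CASTF1 above and C57BL/6J below, with selected genes in colour and the other genes of each complex in grey; values under 1 are drawn at 1. Sdha, Sdhc, Uqcrc2, Ndufab1, Ndufa10, Cox6a2 and Atp5g2 end lower at the 2-cell stage than in G2 zygotes in both strains, while Atp5g1 reaches 23055 in B6CASTF1 and 54190 in C57BL/6J.

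Complex IV reduces oxygen. In 2-cell embryos 12 of 17 tested members rose and Cox6a2 fell in B6CASTF1, and 9 of 17 rose and Cox6a2 and Cox7a2l fell in C57BL/6J. Cox4i1 had levels of 412.1, 751.2 and 8050 in G1 zygotes, G2 zygotes and 2-cell embryos of B6CASTF1, and of 244.2, 1025, 1687 and 11780 across the 4 stages of C57BL/6J. The last of these steps is 3.42 (SE 0.31) in B6CASTF1 and 2.80 (SE 0.24) in C57BL/6J in the authors' deposited tables. Cox7c had the largest called change of the complex in B6CASTF1 among members with a level of at least 3 in both stages, at 5.95 (SE 1.2) in the authors' deposited table. Cox7b rose at both steps after the G1 stage in both strains. In C57BL/6J its level was 231.8, 1384 and 6878.5 in G1 zygotes, G2 zygotes and 2-cell embryos.

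Cox5a and Cox5b, structural subunits, followed another course. They rose at fertilization, by 1.2 (SE 0.32) and 1.10 (SE 0.27) in the authors' deposited table, and at the 2-cell step neither passed in either strain. Cox5a there had -0.20 (SE 0.16) in B6CASTF1 and -0.47 (SE 0.32) in C57BL/6J in the authors' deposited tables. Cox6a1 and Ndufa4 fell at fertilization: Cox6a1 to 1383 in G1 zygotes, against 5188 in MII eggs, and Ndufa4 to 9015 against 21568. Cox6a1 then rose at the 2-cell step, by 2.85 (SE 0.27) in B6CASTF1 and 2.29 (SE 0.22) in C57BL/6J in the authors' deposited tables.

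Complex V makes ATP. In 2-cell embryos 14 of 17 members rose in B6CASTF1 and 12 of 17 in C57BL/6J, and Atp5g2 was the only one to fall in either. Atp5s, counted here by its symbol, is among the 14, and Atp5sl passed in neither strain. Neither is counted among the structural subunits below. All 5 subunits of the soluble F1 part (Atp5a1, Atp5b, Atp5c1, Atp5d and Atp5e) rose in both strains. The catalytic subunit Atp5b had a level of 23853 in 2-cell embryos, against 6712 in G2 zygotes of B6CASTF1, and 7986 against 2593 in C57BL/6J. In the authors' deposited tables these are rises of 1.83 (SE 0.11) and 1.62 (SE 0.25). Atp5d, of the central stalk, rose further, by 4.15 (SE 0.53) in B6CASTF1 and 5.58 in C57BL/6J in the authors' deposited tables. Atp5o, which joins the F1 head to the stator, rose by 5.40 (SE 0.50) in B6CASTF1 and 5.12 (SE 1.17) in C57BL/6J in the authors' deposited tables. Atp5a1 and Atp5b, which alternate in the F1 head, differed at fertilization: Atp5a1 rose by 1.25 (SE 0.25), and Atp5b had -0.72 (SE 0.24) with an adjusted p of 0.092 in the authors' deposited table. Atp5j2, the f subunit of the membrane part, rose before the 2-cell stage: by 2.13 (SE 0.47) in G1 zygotes against MII eggs, and by 1.95 (SE 0.30) in B6CASTF1 and 2.31 (SE 0.47) in C57BL/6J in G2 against G1 zygotes, in the authors' deposited tables.

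**Figure D3:**
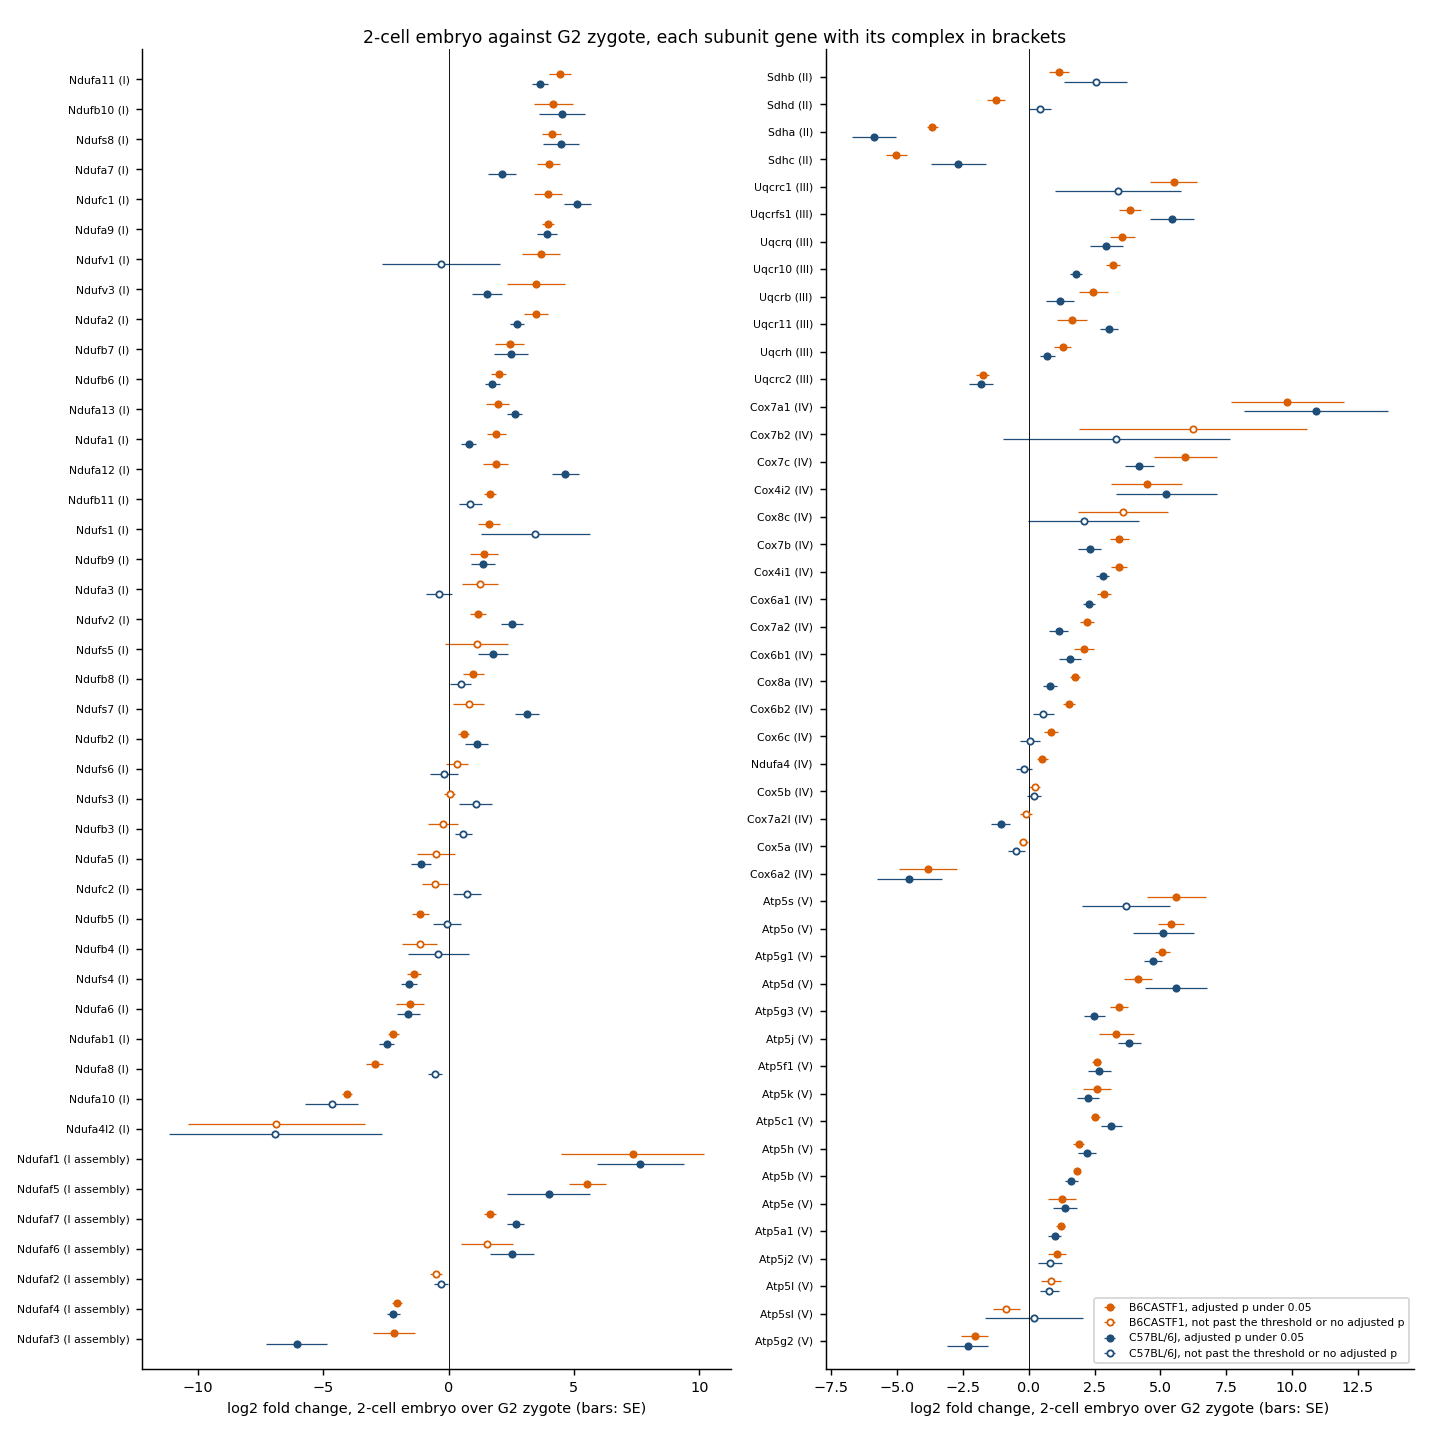
Log2 fold change of 2-cell embryos over G2 zygotes for the members with a fold change, 1 left out, ordered within its complex (in brackets), with B6CASTF1 in orange above C57BL/6J in blue. Bars are the authors' SE, members with a stage level under 3 (such as Cox7a1) are drawn too, filled points passed an adjusted p of 0.05, and the 10 members that fell in both strains lie left of 0 in both colours.

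The c ring, the rotor of complex V, is encoded by Atp5g1, Atp5g2 and Atp5g3, whose mature proteins are identical and whose import sequences differ. Atp5g1 had levels of 240.5, 1931, 2045 and 54190 across MII eggs, G1 zygotes, G2 zygotes and 2-cell embryos of C57BL/6J. In B6CASTF1 it had 661.3, 685.5 and 23055 from G1 zygote to 2-cell embryo. The authors' deposited tables give Atp5g1 3.01 (SE 0.35) in G1 zygotes against MII eggs, and at the 2-cell step 5.07 (SE 0.29) in B6CASTF1 and 4.73 (SE 0.34) in C57BL/6J. Atp5g3 rose at the 2-cell step as well, by 3.44 (SE 0.34) and 2.49 (SE 0.39) in the authors' deposited tables. Atp5g2 had a level of 94.9 in 2-cell embryos, against 394.1 in G2 zygotes of B6CASTF1, and 93.5 against 467.9 in C57BL/6J. It fell in both, with -2.05 (SE 0.50, adjusted p = 0.00012) in B6CASTF1 and -2.32 (SE 0.78, adjusted p = 0.0079) in C57BL/6J by the authors' deposited tables. In G2 against G1 zygotes of B6CASTF1 Atp5g2 had risen by 1.66 (SE 0.45) in the authors' deposited table.

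The promoters of the 3 c ring genes are shown because genes for the same protein moved apart. They come from the same RefSeq table and GRCm38.p6, 5' to 3' on the gene's minus strand, at chr11:96075582-96075881 for Atp5g1, chr15:102670998-102671297 for Atp5g2 and chr2:73911277-73911576 for Atp5g3. Capitals mark 2 overlapping matches to GCGCATGC, on opposite strands, in Atp5g2, and TGACCTT, the reverse complement of the orphan nuclear receptor motif AAGGTCA, in Atp5g3. The window of Atp5g1 held none of the 5 motifs searched. The annotated genes of Atp5g1 and Atp5g3 begin upstream of the start used here, at 96075694 and 73912464. Which motifs are found depends on the start taken, and windows at other starts are not shown.
Atp5g1: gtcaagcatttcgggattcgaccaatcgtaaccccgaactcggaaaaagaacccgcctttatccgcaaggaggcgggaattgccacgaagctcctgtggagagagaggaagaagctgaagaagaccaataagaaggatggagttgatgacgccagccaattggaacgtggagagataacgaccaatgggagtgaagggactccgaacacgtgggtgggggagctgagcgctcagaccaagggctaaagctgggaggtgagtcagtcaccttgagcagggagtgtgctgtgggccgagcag
Atp5g2: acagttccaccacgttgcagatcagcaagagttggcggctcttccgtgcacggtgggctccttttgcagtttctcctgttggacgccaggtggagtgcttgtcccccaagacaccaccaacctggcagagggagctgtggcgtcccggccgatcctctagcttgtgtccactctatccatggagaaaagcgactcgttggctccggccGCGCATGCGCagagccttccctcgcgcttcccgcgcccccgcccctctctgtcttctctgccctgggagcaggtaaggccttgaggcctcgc
Atp5g3: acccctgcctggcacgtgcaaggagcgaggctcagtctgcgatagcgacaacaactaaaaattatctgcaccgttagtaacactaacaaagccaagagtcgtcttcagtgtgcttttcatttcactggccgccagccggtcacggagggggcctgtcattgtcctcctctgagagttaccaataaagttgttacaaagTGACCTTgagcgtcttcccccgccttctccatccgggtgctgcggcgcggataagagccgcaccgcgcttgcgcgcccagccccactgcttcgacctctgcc

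Of the 92 members, 76 had a promoter in the RefSeq table, and the motifs were counted on both strands of the 300 bases. GCGCATGC was in 12 of the 76 (15.8%) and in 2.80% of all 27025 promoters. CCGGAAG was in 16 (21.1%) and in 9.12% of all. AAGATGGC, the YY1 motif, was in 10 (13.2%) and in 2.88% of all, and AAGGTCA in 8 (10.5%) and in 4.66% of all. TATAAA was in 7 (9.21%) and in 14.2% of all. Of the members that rose at the 2-cell step in both strains, 39 had a promoter: 5 held the NRF1 motif, 12 the ETS motif, 3 the YY1 motif, 4 the receptor motif and 2 the TATA motif. Of those that fell in both, 7 had a promoter: 3 held the NRF1 motif (Atp5g2, Ndufa6 and Ndufaf4), 1 the YY1 motif, and 0 any of the other 3. A match describes letters in this window and is not a measured site. For some members the start used is not the outer end of the annotated gene.

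Several complex IV subunits have tissue-restricted paralogs, and their share of the paralog group was worked out from levels per kb of coding transcript (median length). Cox6a2, the form of heart and skeletal muscle, made up 0.790%, 9.24%, 19.5% and 0.212% of the Cox6a level across MII eggs, G1 zygotes, G2 zygotes and 2-cell embryos of C57BL/6J. In B6CASTF1 the shares were 11.7%, 24.2% and 0.313% from G1 zygote to 2-cell embryo. Cox6a2 itself was not called at fertilization or in G2 against G1 zygotes of either strain, while Cox6a1 fell at fertilization. The shares were not tested. Cox6a2 fell at the 2-cell step, with -3.82 (SE 1.11) in B6CASTF1 and -4.54 (SE 1.23) in C57BL/6J in the authors' deposited tables. Cox6b2, known as the testis form, exceeded Cox6b1 at every stage, with 88.8%, 86.4% and 81.3% of the Cox6b level in B6CASTF1 and 83.3%, 89.0%, 82.2% and 69.4% across the 4 stages of C57BL/6J. With the shortest or the longest transcripts in place of the median, chosen after seeing the data, its share stayed between 55.2% and 91.9%. Of the 10 sperm and testis markers, 4 to 6 were under 3 at each stage, and Ldhc, at 940.2 in B6CASTF1 and 449.2 in C57BL/6J 2-cell embryos, was the highest of them at that stage.

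Cox7a2l, which is known as a supercomplex factor and not a plain complex IV subunit, made up 17.9% of the Cox7a level in 2-cell embryos, against 53.1% in G2 zygotes of B6CASTF1, and 8.50% against 30.7% in C57BL/6J. Its own level was 2143 in 2-cell embryos, against 2310 in G2 zygotes of B6CASTF1, where it was not called, and 2773 against 5811 in C57BL/6J, where it fell. Cox7a2, the widely expressed form, rose in both, to 5655 against 1221 in B6CASTF1 and to 17274 against 7843 in C57BL/6J. Cox7a1, the muscle form, had a level of 149.3 in 2-cell embryos of B6CASTF1 and 372.5 in those of C57BL/6J, with levels under 3 in the G2 zygotes of both, and it rose in both. Cox4i2, known as the lung form, rose at the 2-cell step in both strains, to 173.9 in 2-cell embryos against 7.8 in G2 zygotes of B6CASTF1, and to 585.4 against 15.7 in C57BL/6J. Cox8c, a testis form, was under 3 in the G1 zygotes of both strains and rose in the G2 zygotes of both. Shares of the c ring level depend on the length taken for Atp5g1, whose coding transcripts run from 596 to 4715 bases. Over the shortest and longest transcripts the share of Atp5g2 was 0.262% to 1.51% in 2-cell embryos, against 20.8% to 47.6% in G2 zygotes of B6CASTF1. In C57BL/6J it was 0.127% to 1.14% in 2-cell embryos, against 11.7% to 38.9% in G2 zygotes. Reads of near-identical copies may be split between paralogs and pseudogenes, and the sources used here do not say how they were counted.

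**Figure D4:**
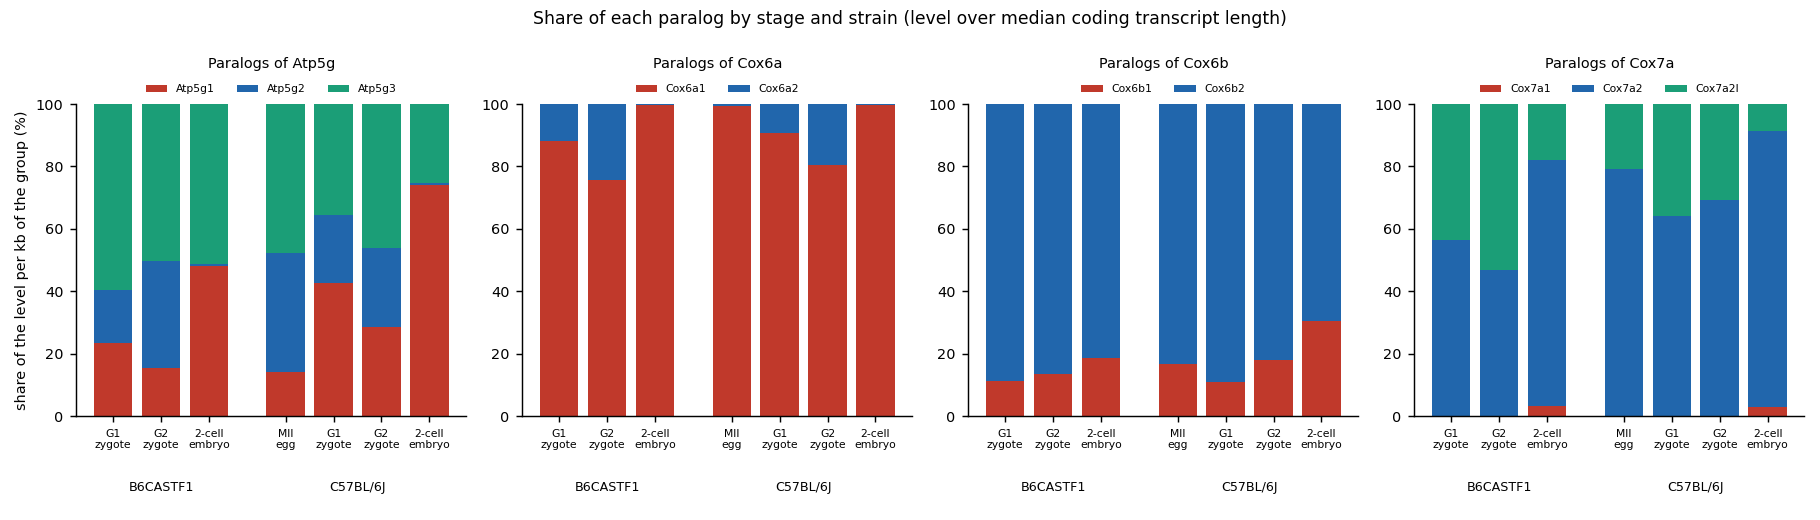
Share of each paralog in the summed level per kb of its group, by stage, with B6CASTF1 left and C57BL/6J right in each panel. Cox6b2 holds most of the Cox6b level at all stages, while at the median length drawn the shares of Cox6a2 and Atp5g2 are under 1% in the 2-cell embryos of both strains (up to 1.51% for Atp5g2 at other lengths).

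The hybrid and the inbred strain were compared at the steps measured in both. Of the members, 46 rose at the 2-cell step in both strains, 10 fell in both (Ndufa6, Ndufab1, Ndufs4, Ndufaf3, Ndufaf4, Sdha, Sdhc, Uqcrc2, Cox6a2 and Atp5g2) and 0 were called in opposite directions, of 89 members tested in both. Of 12573 genes tested in both, 20.7% rose in both, 18.4% fell in both and 0.986% were called in opposite directions. Of these 89 members, 81 had the same sign (91.0%), against 81.2% of all genes. Pearson's r of the fold changes between strains was 0.90 over these 89 members and 0.69 over 12573 genes, across genes that share libraries. At the G2 against G1 step 68 of 88 members had the same sign (77.3%), against 65.6% of all genes, and r was 0.46 over the members and 0.20 over 12517 genes. There 9 members rose in both strains: Ndufa7, Ndufaf4, Sdhd, Cox4i1, Cox5b, Cox7b, Cox8c, Atp5j and Atp5j2. Of all genes tested in both at that step 2.28% rose in both, 1.24% fell in both and 0.152% were called in opposite directions, with 0 members in the last 2 classes.

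The strain difference of a fold change (B6CASTF1 minus C57BL/6J, tested against its combined SE and adjusted over all genes) passed for 7 of 89 members at the 2-cell step. Of these, 3 were higher in B6CASTF1 (Cox8a, Ndufaf3 and Uqcr10), where 11.6% of all genes were, and 4 were lower (Ndufa8, Ndufa12, Ndufs7 and Sdhd), where 5.03% were. The member shares, 3 and 4 of 89, are under that background. At the G2 against G1 step Uqcr10 was the only call among 88 members, lower in B6CASTF1. The backgrounds there, at the adjusted p, were 1.04% higher and 0.879% lower. At an unadjusted p under 0.05, 10 members were lower and 0 higher. The share of all genes at that looser limit was not worked out. The median SE of the difference was 0.64 and 0.70 for the members at these steps. Ndufa8 fell by 2.95 (SE 0.34) at the 2-cell step in B6CASTF1, and the authors' deposited table of C57BL/6J has -0.55 (SE 0.29, adjusted p = 0.097).

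**Figure D5:**
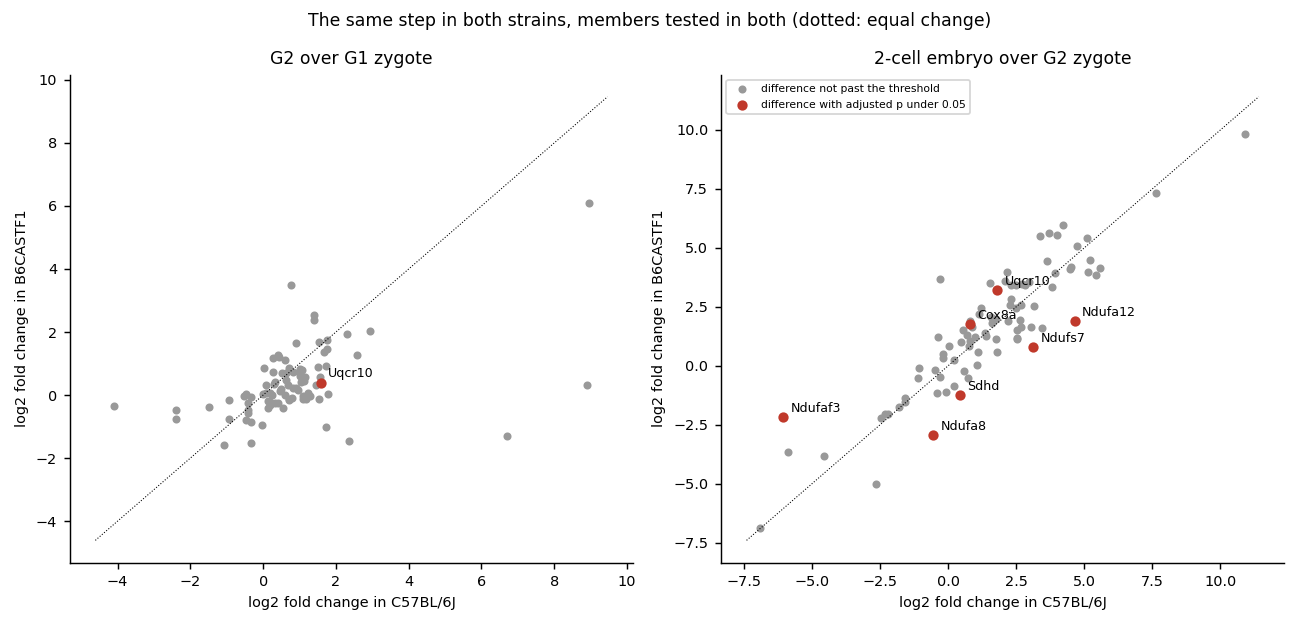
Log2 fold change in B6CASTF1 (vertical) against C57BL/6J (horizontal) for the members tested in both strains, for G2 over G1 zygotes (left) and 2-cell embryos over G2 zygotes (right). The dotted line marks equal change, and the labelled red points are the 1 and 7 members whose strain difference had an adjusted p under 0.05.

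Summed over the 3 steps of C57BL/6J, 66 of 87 members with a level of at least 3 in both MII eggs and 2-cell embryos had a net rise, with a median of 2.31, against 5869 of 10190 genes and a median of 0.57. The net median was 3.15 for complex V, 2.93 for complex III, 2.03 for complex I, 1.40 for complex IV and 0.02 for complex II. This sum of the authors' deposited fold changes has no test, because the steps share samples. Member transcripts are short, with a median of 683 bases against 2027 for all genes with a length. Spearman's rho between length and fold change over the members was -0.13 in B6CASTF1 and 0.04 in C57BL/6J at the 2-cell step, and 0.34 in G1 zygotes against MII eggs.

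Genes around the machinery were described by lists, whose counts are to be read against the 33.1% higher and 26.8% lower of all tested genes in B6CASTF1 and the 25.0% and 25.3% in C57BL/6J at the 2-cell step. Of 35 assembly factors and electron carriers outside the member rule, 19 of 35 rose and 7 fell at the 2-cell step in B6CASTF1, and 16 of 34 rose and 4 fell in C57BL/6J. They include Cyc1, the cytochrome of complex III, with 6.11 (SE 0.88) and 6.76 (SE 1.92), and Atpif1, the inhibitor of complex V, with 2.61 (SE 0.24) and 2.91 (SE 0.33), in the authors' deposited tables. Of 17 citrate cycle and pyruvate dehydrogenase genes, 8 rose and 8 fell in B6CASTF1, and 6 rose and 2 fell in C57BL/6J. Mitochondrial ribosomal protein genes rose in 41 of 77 cases and fell in 16 in B6CASTF1, and rose in 39 of 76 and fell in 6 in C57BL/6J. Cytosolic ribosomal protein symbols, a list that also took in some S6 kinase genes by their prefix, rose in 82 of 98 and 79 of 95 cases, and fell in 3 and 2. Of the glycolysis genes, 10 of 16 rose and 1 fell (Ldhb) in B6CASTF1, and 5 of 15 rose and Ldhb fell in C57BL/6J. Of the 20 genes for mitochondrial biogenesis and transcription, 10 rose and 4 fell in B6CASTF1, and 5 of 17 tested rose and 3 fell in C57BL/6J. The median fold changes of the biogenesis list were 1.51 and -0.32, of the glycolysis list 2.04 and 0.94, and of the citrate cycle list 0.68 and 1.78, in B6CASTF1 and C57BL/6J from the authors' deposited tables. Among the biogenesis genes Gabpa, the DNA-binding subunit of GABP, rose by 10.10 (SE 0.27) in B6CASTF1, and the authors' deposited table of C57BL/6J has 10.34 (SE 1.61) with no p. Nr5a2, the nuclear receptor named in the title of the series, rose by 4.16 (SE 0.56) in B6CASTF1 and 3.11 (SE 0.57) in C57BL/6J, and Esrrb, a receptor that binds a like motif, fell, with -3.39 (SE 0.67) and -5.72 (SE 0.98), in the authors' deposited tables.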

How the data were processed

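RNA of 20 samples in 7 groups was measured. Per the submitters' processing notes, the authors worked with build mm10 and named TopHat, kallisto, DESeq2, Picard and bcl2fastq, the role of each not stated. The authors made the 5 deposited comparison tables with DESeq2 1.18.1, per the file names. They hold, per the file headers, the deposited mean normalized count (a signal, counts over size factors), log2 fold change and SE, Wald statistic (a score), p-value and adjusted p-value. The means were identical within a strain and differed between strains. They summed to 20428114 in B6CASTF1 and 19348115 in C57BL/6J; members made up 0.620% and 1.11%. The depth per sample is unknown, and precision was read from the SE (median for members with a mean count of at least 100: 0.34 to 0.38 in B6CASTF1, 0.45 in C57BL/6J). Over all such genes the median SE was 0.36 to 0.40 in B6CASTF1 and 0.83 to 0.90 in C57BL/6J.

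From these, levels per stage, strain differences (the strains share no samples), paralog shares and motif counts were computed with Python 3.11.15, numpy 2.4.6, pandas 2.3.3 and scipy 1.17.1; figures used matplotlib 3.10.9. The strain test was tested on simulated data. Levels weight each stage by its samples. Members, lists and motifs were chosen with earlier results of these data known. Candidates for naming in each comparison were the called members with the highest and lowest fold change in each complex (mean count at least 100). Members going against their complex, members differing between strains, and a set list of core subunits and paralogs were candidates too. Not every candidate is named in the text, and other names were chosen after their values were seen. Lengths are from the protein-coding transcripts of GENCODE, used by symbol. Promoters and places are from RefSeq GRCm38.p6, with places matched by symbol, Ensembl identifier or synonym. Mitochondrially encoded subunits were not analysed here, and 1 member is counted but not reported singly. Alternatives were thresholds, filters, recentring, a larger SE and structural subunits only.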

Additional observations from a re-analysis of the deposited data

Results flagged for a closer look

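In all, 8 strain differences among the members passed an adjusted p of 0.05 by the test of the difference itself (B6CASTF1 minus C57BL/6J, log2 scale). In G2 against G1 zygotes Uqcr10, a small complex III subunit, differed by -1.20 (SE 0.34, adjusted p = 0.033); recentring gave -1.10 with an adjusted p of 0.068, and the call was also lost at 0.01, under Bonferroni and with the larger SE. In 2-cell embryos against G2 zygotes the same gene differed by 1.40 (SE 0.36, adjusted p = 0.0017), from changes of 0.39 and 3.20 in B6CASTF1 and 1.58 and 1.80 in C57BL/6J at the 2 steps in the authors' deposited tables. Both steps use the G2 zygote samples, with opposite sign, so the 2 differences of Uqcr10 are not independent. The levels of Uqcr10 were 326.5, 427.4 and 3924 in G1 zygotes, G2 zygotes and 2-cell embryos of B6CASTF1, and 963.0, 2888 and 10071 in those of C57BL/6J.

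At the 2-cell step the complex I subunits Ndufa8, Ndufa12 and Ndufs7 differed by -2.41 (SE 0.45, adjusted p = 3.1e-06), -2.77 (SE 0.73, adjusted p = 0.0023) and -2.33 (SE 0.79, adjusted p = 0.023). Sdhd, an anchor of complex II, differed by -1.68 (SE 0.53, adjusted p = 0.013). Cox8a of complex IV differed by 0.94 (SE 0.33, adjusted p = 0.030). The assembly factor Ndufaf3 differed by 3.89 (SE 1.47, adjusted p = 0.049), with levels of 41.5 in B6CASTF1 and 3.2 in C57BL/6J 2-cell embryos. Under Bonferroni, and with the SE multiplied by 1.5, Ndufa8 was the only 1 of these 7 calls at the 2-cell step that held. Each strain was fitted on its own, so strain and any difference between the fits cannot be told apart.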

How the results depend on the processing

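No paired analysis was possible because the labels give no shared replicate numbers and the tables hold no value per sample; leaving out replicates was not run for the same reason. Of 112 counts of called members under alternatives, 86 stayed within 1.5 times and 26 did not. Higher calls come before lower calls below. Bonferroni left 5 and 4 members in G1 zygotes against MII eggs, 6 higher in G2 against G1 zygotes of C57BL/6J, 4 and 2 in that step of B6CASTF1, 37 and 8 in 2-cell embryos of B6CASTF1, 29 and 5 in those of C57BL/6J, and, for strain differences, 0 lower at the G2 against G1 step and 0 and 1 at the 2-cell step. An SE multiplied by 1.5 left 2 and 4 in G1 zygotes against MII eggs, 5 higher in G2 against G1 zygotes of C57BL/6J, 6 and 2 in that step of B6CASTF1, 7 lower in 2-cell embryos of C57BL/6J, and strain differences of 0 lower, then 0 and 1. A minimum absolute log2 fold change of 1 left 1 lower in G2 against G1 zygotes of B6CASTF1. An adjusted p under 0.01 left strain differences of 0 lower, then 1 and 2. Recentring left 0 lower strain differences at the G2 against G1 step. The causes follow from the stricter limits; for recentring the cause was not tested. Of the 123 calls of candidates for naming, 58 were lost under Bonferroni, 48 with the larger SE and 21 at 0.01. The minimum fold change lost 11, recentring 3 and leaving out independent filtering 2. Structural subunits alone (83 members) kept 53 and 12 calls in 2-cell embryos of B6CASTF1 and 45 and 10 in those of C57BL/6J. With a weight of 3 for the B6CASTF1 2-cell samples, an alternative chosen after seeing the data, the 2-cell levels of Atp5g1, Cox4i1 and Sdha were 17769, 6419 and 321.9; folds do not change. Depth per sample is unknown, so low levels are uncertain.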
